A study of Mus musculus with 17 samples.

Results

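The skin innate lymphoid cells (ILCs) described here are the cells of 1 mouse skin single-cell library that held at least 2 Csf2 counts, at least 200 detected genes and under 10% of counts in mitochondrial genes. They numbered 211 of the 4106 cells that met the gene and mitochondrial limits in that library, and of 5124 such cells in the 3 single-cell libraries of the series. They were set against 211 cells of the same library with 0 Csf2 counts, each matched to a Csf2-positive cell by its total count without Csf2. Csf2 counts chose the cells, and within the skin library the other genes were measured in the same cells, so the differences there are given as descriptions with no test. Tests were made on sums over the 3 single-cell libraries, of which the skin library is 1, and on the bulk libraries, and the single-cell test is also given without the skin library.

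All mice had a C57BL/6 background. Cells were sorted from skin as live CD90-positive cells without lineage markers or the γδ T cell receptor for bulk RNA sequencing, and the same labelled cell type, skin ILC, was used for single cells. The single-cell libraries, 1 each, were a skin library and dorsal skin libraries from day 0 and day 10 after depilation. The protocol names ear and dorsal skin, and the labels of the skin library do not say which part of the skin it came from. The bulk libraries compared fate-map (fm) reporter-positive with reporter-negative ILCs of reporter mice, and their titles name the fate map as RORgt-fm. Mice with Gata3 floxed for deletion gave fm_pos_Gata3flox and fm_neg_Gata3flox (3 libraries each). Reporter mice with intact Gata3 gave fm_pos and fm_neg (2 libraries each). The library titles do not say in which of the sorted cells Gata3 was deleted. The bulk libraries also compared ILCs of Gata3 fl/fl CreERT2 mice (Gata3KO, 2 libraries) with those of wild-type mice (WT, 2 libraries). Both of these groups had received 3 intraperitoneal injections of 5 mg tamoxifen. CreERT2 is a recombinase activated by tamoxifen, and the labels name no tissue-restricted driver for it. They do not say whether replicate libraries came from separate animals, so p-values measure the spread between these samples, which may be technical.

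Csf2 encodes GM-CSF, a secreted growth factor that acts on monocytes, macrophages, dendritic cells and granulocytes through a receptor made of an alpha chain (Csf2ra) and the common beta chain (Csf2rb). Lymphocytes make it transiently after activation, when NF-κB, NFAT and AP-1 factors act on its promoter and enhancers, and its mRNA is short-lived. Group 2 ILCs respond to the alarmin IL-33 through its receptor ST2 (Il1rl1) and release IL-5, IL-13 and, in many settings, GM-CSF. The gene, ENSMUSG00000018916 in the files, lies on the minus strand of chromosome 11 at 54247271 to 54249667 (mm10), in the interval that also carries Il3, Il5 and Il13.

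Csf2-positive cells made up 5.14% of the skin library (95% Clopper-Pearson interval 4.48 to 5.86), and a further 309 cells (7.53%) held a single Csf2 count. Just inside the threshold, 88 cells held exactly 2 counts. Of the other Csf2-positive cells, 36 held 3 counts, 19 held 4 and 68 held 5 or more, up to 46 in 1 cell. The distribution was thus uneven, with a median of 3 counts per Csf2-positive cell and 1049 counts in all. The median total count per cell was 2677 in Csf2-positive cells and 2311 in all cells with 0 Csf2 counts. After matching, both sets had a median of 2666 counts without Csf2, and their sums were 615824 in the Csf2-positive cells and 615321 in the matched cells. Median mitochondrial shares were 4.24% and 4.47% in Csf2-positive cells and in all cells with 0 Csf2 counts.

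RNA free in the suspension can give single counts to cells that do not express a gene. The 68 cells of clusters 0, 1 and 9, led by monocyte, B cell and macrophage genes such as Lyz2, Cd79a and C1qb, gave a measure of this. Of them 11.8% held at least 1 Csf2 count and 1.47% (1 cell, exact interval 0.0372 to 7.92) at least 2, at a median depth of 2768 counts. In the other clusters 12.7% held at least 1 and 5.20% (4.54 to 5.93) at least 2, at a median depth of 2355 counts. The share with at least 1 count in the other clusters was thus close to that background. The share with at least 2 lay above the background value but within its interval, so these few cells do not set the background of 2 counts closely. The doublet caller marked only 3 of the 4106 cells, too few for a working caller, and 1 of these was Csf2-positive. The skin and day 0 libraries shared 4 cell names, 1 of them Csf2-positive in skin, and the other pairs of libraries shared none.

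The label of the cells was checked against marker lists. Of 10 genes common to ILCs, 9 had at least 100 counts summed over both sets, and their median log2 ratio, Csf2-positive over matched cells, was 0.02. Gata3, the transcription factor needed by group 2 ILCs, was detected in 92.9% of Csf2-positive cells, against 82.9% of matched cells. It was also detected in 63.2% of the cells of clusters 0, 1 and 9, so detection alone does not identify such a cell. Transcripts of the CD3 genes Cd3d, Cd3e or Cd3g, which mark T cells, were found in 27 cells of either set (12.8%). In clusters 0, 1 and 9 they were found in 11.8% of cells, so 12.8% is close to background and not a share of T cells. The 14 genes of the myeloid list, antigen presentation genes included, summed to 3.05 counts per 10000 in Csf2-positive cells and 5.12 in matched cells, and Cd14 and Cd207 were at 0 in both sets. The matched set held 2 cells of cluster 0 and 4 of cluster 9, against 0 and 1 among Csf2-positive cells. Of the myeloid list, Lyz2 gave 0 counts in Csf2-positive cells, against 79 in matched cells, and Csf1r gave 2 counts, against 16. Cd74, which presents antigen in several cell types, made up most of the rest, with 146 counts in Csf2-positive cells and 112 in matched cells, a ratio of 1.30 (1.01 to 1.68). The B cell list summed to 0.357 counts per 10000 in Csf2-positive cells and 0.780 in matched cells.

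Across the 2155 genes with at least 100 summed counts, 26 (1.21%) were at least 2-fold higher in Csf2-positive cells and 9 (0.418%) at least 2-fold lower. Type 2 cytokines, an alarmin receptor, chemokines, TNF-family ligands and NF-κB feedback genes were among the higher genes. Of 25 genes of type 2 cytokines and group 2 ILCs, 14 had enough counts, and 6 of those were at least 2-fold higher and 0 lower, with a median log2 ratio of 0.49. Of 23 NF-κB and TNF-family genes, 21 had enough counts, and 20 of them had a ratio above 1, with a median log2 ratio of 0.53. Of all 2155 genes, 981 had a ratio above 1 and the median log2 ratio was -0.03. All 23 immediate early and stress genes were listed, 21 had enough counts, and 3 of these were at least 2-fold higher, with a median of 0.35. Feedback genes of cytokine signalling had 8 members with enough counts, 1 of them 2-fold higher, and a median of 0.44, and of the type 1 ILC and NK list 3 had enough counts and 2 were 2-fold lower.

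**Figure D1:**
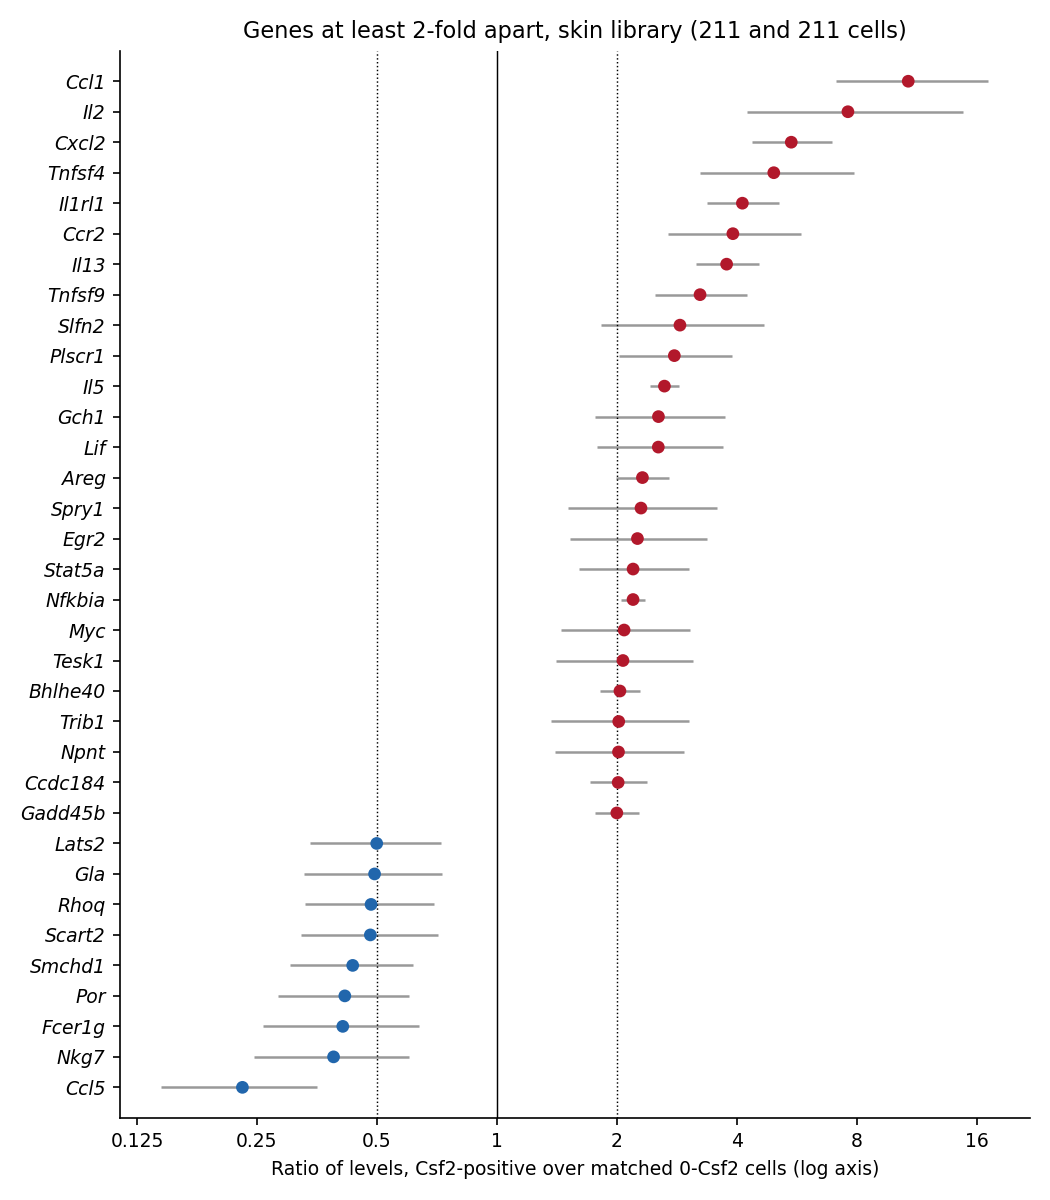
Ratio of the summed level in 211 Csf2-positive cells over that in 211 depth-matched cells with 0 Csf2 counts (log axis), for 34 of the genes at least 2-fold apart in the skin library. Points are ratios and lines 95% exact Poisson intervals, which cover counting error only. Ccl1 had the highest ratio, 10.8, and Ccl5 the lowest, 0.230.

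Levels below are counts per 10000 counts of the summed cells, and their intervals cover counting error only and leave out the spread between cells. The cytokines of the type 2 response were led by Il5, which encodes the growth and survival factor of eosinophils. It stood at 34.2 per 10000 in Csf2-positive cells and 13.0 in matched cells, a ratio of 2.63 (2.43 to 2.86), and was detected in 124 Csf2-positive cells and 87 matched cells. Il13, the cytokine that drives mucus and alternative macrophage activation, stood at 9.39 in Csf2-positive cells and 2.49 in matched cells, a ratio of 3.77 (3.15 to 4.54). Il13 was found in 107 Csf2-positive cells and 54 matched cells, although a single Csf2-positive cell gave 18.2% of their counts. Areg, which encodes the EGF receptor ligand amphiregulin, stood at 9.13 in Csf2-positive cells and 3.93 in matched cells, a ratio of 2.32 (1.99 to 2.71). Il4 was barely detected, with 20 counts in Csf2-positive cells and 8 in matched cells.

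Chemokines and other secreted factors gave the highest ratios. Ccl1, a chemokine ligand of CCR8 that was also on the type 2 list, stood at 4.21 per 10000 in Csf2-positive cells and 0.390 in matched cells, a ratio of 10.8 (7.09 to 17.1), and was detected in 52 Csf2-positive cells and 13 matched cells. Il2, the T cell growth factor, stood at 1.61 in Csf2-positive cells and 0.211 in matched cells, a ratio of 7.61 (4.25 to 14.8), in 34 Csf2-positive cells and 13 matched cells. These factors were thus each found in a minority of the Csf2-positive cells. Cxcl2, a chemokine for neutrophils, stood at 8.02 in Csf2-positive cells and 1.46 in matched cells, a ratio of 5.48 (4.37 to 6.94). Lif, a cytokine of the IL-6 family and of the same list, had a ratio of 2.54.

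Among surface proteins, Il1rl1 stood at 7.79 per 10000 in Csf2-positive cells and 1.89 in matched cells, a ratio of 4.13 (3.37 to 5.11), and was detected in 66 Csf2-positive cells and 28 matched cells. It was the only one of 7 receptors for inducing cytokines with enough counts that passed 2-fold. Il18r1, a chain of the IL-18 receptor, had a ratio of 0.874, and Il2ra, the high-affinity IL-2 receptor chain, 1.60. The TNF-family ligand Tnfsf4 (OX40L), which costimulates T cells, stood at 2.09 in Csf2-positive cells and 0.423 in matched cells, a ratio of 4.96 (3.23 to 7.87). Tnfsf9 (4-1BBL), another costimulatory ligand, stood at 3.95 in Csf2-positive cells and 1.22 in matched cells, a ratio of 3.24 (2.49 to 4.25). Ccr2, the receptor for the chemokine CCL2, had a ratio of 3.91.

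Intracellular genes at least 2-fold higher included Nfkbia, the inhibitor that NF-κB induces as its own feedback. It stood at 41.0 per 10000 in Csf2-positive cells and 18.6 in matched cells, a ratio of 2.20 (2.05 to 2.36), and was found in 203 Csf2-positive cells and 184 matched cells. Nfkbia was thus detected in nearly all cells of both sets and differed in level. The others were the transcription factors Egr2 (2.25), Myc (2.09), Stat5a (2.20), which transmits IL-2 and IL-7 family signals, and Bhlhe40 (2.04), which in mouse T cells promotes Csf2 expression. The set also held the signalling inhibitor Spry1 (2.30), the pseudokinase gene Trib1 (2.02), the stress gene Gadd45b (2.0), the biopterin enzyme gene Gch1 (2.55), Slfn2 (2.88) and Plscr1 (2.79). Tesk1 (2.07), Npnt (2.02) and Ccdc184 (2.02) completed it. Just outside the threshold lay Nfkbiz, an atypical inhibitor of NF-κB, with 9.03 per 10000 in Csf2-positive cells and 4.52 in matched cells. Gata3 itself stood at 23.2 in Csf2-positive cells and 17.1 in matched cells, a ratio of 1.36 (1.26 to 1.48).

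Several programmes held 0 genes with enough counts that were 2-fold apart. They included glycolysis (10 genes, median log2 ratio -0.17), heat shock (11 genes, -0.18), NFAT and cytokine mRNA control (10 genes, 0.05) and group 3 ILC and type 17 genes (6 genes, 0.16). Type 17 and type 1 cytokines were close to undetected in Csf2-positive cells, with 3 counts of Il17a, 7 of Il17f, 23 of Il22 and 1 of Ifng, against 5, 2, 42 and 2 counts in matched cells. The lower set was led by Ccl5, Nkg7 and Fcer1g, genes typical of cytotoxic lymphocytes or shared with myeloid cells. Ccl5 stood at 0.422 per 10000 in Csf2-positive cells and 1.84 in matched cells, and at 0.285 in all cells with 0 Csf2 counts. Its ratio thus turned with the choice of comparison cells, and Fcer1g turned likewise when cells were matched within clusters. The other lower genes, Por, Smchd1, Scart2, Rhoq, Gla and Lats2, had ratios of 0.416 to 0.50.

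Csf2-positive cells held few counts of the receptor for GM-CSF. Csf2ra stood at 0.227 per 10000 in Csf2-positive cells and 0.325 in matched cells. Csf2rb gave 0 counts in Csf2-positive cells, with an upper 95% limit of 0.0599 per 10000, against 10 counts in matched cells. In all cells with 0 Csf2 counts Csf2rb stood at 0.0455 per 10000, within that limit, so no lower level was shown. The related gene Csf2rb2 gave 7 counts in Csf2-positive cells and 2 in matched cells. In the 12 cells of cluster 0, led by genes that include Lyz2 and Csf1r, Csf2ra stood at 8.68 and Csf2rb at 2.17 per 10000. The other members of the colony-stimulating factor family were sparse, with 16 Csf1 counts in Csf2-positive cells and 5 in matched cells, and 1 count of Il3 in Csf2-positive cells and 0 in matched cells.

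Promoter windows are shown for 3 of the higher genes in which an NF-κB motif was found: the NF-κB feedback gene Nfkbia and the chemokine genes Cxcl2 and Ccl1, whose single-cell and bulk values are given here sample by sample or set by set. The windows hold the 250 bases before the RefSeq start of each gene (GRCm38.p6), printed 5′ to 3′ on the strand of the gene, with the matches to the NF-κB (κB) consensus in capitals. They are chr12:55492648-55492897 (minus strand) for Nfkbia, chr5:90903649-90903898 (plus strand) for Cxcl2 and chr11:82179813-82180062 (minus strand) for Ccl1.
Nfkbia: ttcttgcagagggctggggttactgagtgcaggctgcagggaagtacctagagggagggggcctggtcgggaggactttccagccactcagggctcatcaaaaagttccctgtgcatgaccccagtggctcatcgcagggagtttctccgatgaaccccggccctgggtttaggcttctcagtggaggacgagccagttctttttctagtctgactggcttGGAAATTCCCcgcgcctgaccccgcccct
Cxcl2: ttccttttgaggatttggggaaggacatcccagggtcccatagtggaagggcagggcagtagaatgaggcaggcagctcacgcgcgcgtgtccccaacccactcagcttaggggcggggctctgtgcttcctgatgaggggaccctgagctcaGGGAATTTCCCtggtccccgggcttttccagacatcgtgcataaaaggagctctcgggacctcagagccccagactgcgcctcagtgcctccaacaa
Ccl1: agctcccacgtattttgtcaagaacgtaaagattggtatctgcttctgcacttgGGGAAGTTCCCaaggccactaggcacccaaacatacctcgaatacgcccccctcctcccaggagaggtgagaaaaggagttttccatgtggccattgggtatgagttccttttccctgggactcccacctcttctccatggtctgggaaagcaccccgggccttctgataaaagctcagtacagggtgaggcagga
The match starts 29 bases before the start site in Nfkbia. In Cxcl2 there were 2 overlapping matches, at 97 and 96 bases, and in Ccl1 2 overlapping matches, at 196 and 195 bases. On either strand the consensus was found in 6 of the 20 higher genes with a window (30%), which were Cxcl2, Egr2, Lif, Ccl1, Nfkbia and Gch1, and in 7.01% of all 27025 genes with one. The letters GGAAA, the core bound by NFAT, were found in 14 of 20 (70%) against 55.6% of all genes, TGANTCA (AP-1) in 1 of 20 against 6.87%, and GATAA (GATA factors) in 4 of 20 against 23.0%; GGAAA can lie within a κB match. A match is a description of letters and does not show that a factor binds there.

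Levels by Csf2 count were read over cells with 0 (matched), 1, 2, 3 to 4 and 5 or more counts, which numbered 211, 309, 88, 55 and 68. Il1rl1 stood at 1.89, 2.79, 4.45, 8.05 and 11.5 per 10000 in that order, and Nfkbia at 18.6, 26.9, 34.5, 42.8 and 47.1. Both were higher at each step. Gata3 stood at 17.1, 16.998, 21.9, 21.4 and 26.1, so cells with a single Csf2 count had the level of cells with none. Ccl1 followed another order, at 0.390, 0.892, 4.74, 5.02 and 3.00, and was lower in the cells with the most Csf2 than in those with 2 to 4 counts. Cxcl2 stood at 9.19 per 10000 at exactly 2 counts (8.03 to 10.5) and at 7.45 at 5 or more (6.34 to 8.70). These intervals overlap, so no order was shown for Cxcl2 there. Single cells gave up to 16.2% of the Cxcl2 counts and 12.4% of the Ccl1 counts of the Csf2-positive cells. Median depths of these sets were 2666, 2535, 2567, 2466 and 3037 counts.

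**Figure D2:**
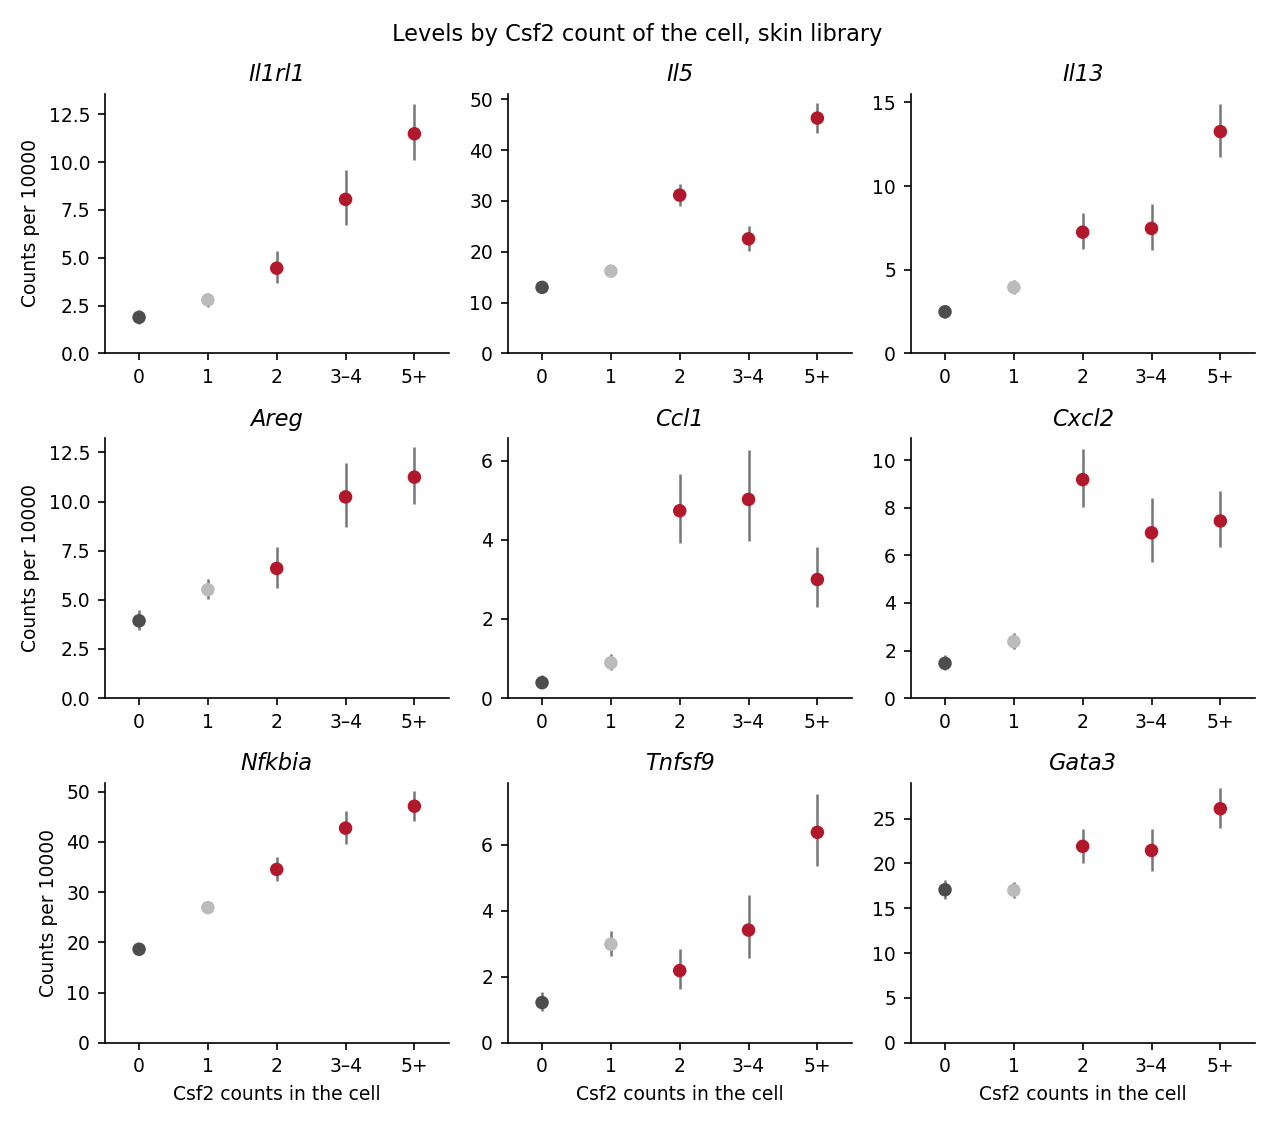
Level of 9 genes (counts per 10000) in skin cells grouped by their own Csf2 count, with cells of 2 or more counts in red, cells of 1 count in light grey and matched cells of 0 counts in dark grey. Lines are 95% Poisson intervals for counting error. Il1rl1 and Nfkbia were higher at each step, whereas Ccl1 was not highest in cells with 5 or more Csf2 counts. The Cxcl2 intervals of the sets with 2 or more counts overlap.

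Of the Csf2-positive cells, 74.4% (68.0 to 80.2) held a count of Il4, Il5 or Il13, against 54.0% (47.1 to 60.9) of matched cells and 41.2% of clusters 0, 1 and 9 at a median depth of 2768. For Il17a, Il17f or Il22 the shares were 10.9% in Csf2-positive cells, 9.95% in matched cells and 13.2% in those clusters, which is the background level. Neither kind of cytokine was found in 23.2% of Csf2-positive cells and in 41.7% of matched cells.

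Il1rl1 divided the Csf2-positive cells into 66 with the receptor transcript and 145 without. Each set was compared with as many cells of like depth with 0 Csf2 counts and the same Il1rl1 status. Il1rl1 was detected in 31.3% of Csf2-positive cells, 13.3% of matched cells and 16.2% of clusters 0, 1 and 9. Detection in cells with 0 Csf2 counts was thus near that background, and a count there does not by itself show expression. The type 2 cytokine Il5 was highest where both transcripts were present. It stood at 71.1 per 10000 in Csf2-positive cells with Il1rl1, against 33.7 in Csf2-zero cells with Il1rl1. Without Il1rl1 it stood at 14.9 in Csf2-positive cells, against 9.01 in Csf2-zero cells. Il13 followed Csf2 more than Il1rl1, at 12.6 with both transcripts and 7.72 with Csf2 alone, against 2.79 with Il1rl1 alone and 2.62 with neither. Cxcl2 stood at 16.4 with both and 3.64 with Csf2 alone, against 5.11 with Il1rl1 alone and 0.619 with neither.

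A different group of genes was highest in the Csf2-positive cells without Il1rl1. Tnfsf9 stood there at 5.12 per 10000, against 1.14 in their Csf2-zero partners, while it stood at 1.70 in Csf2-positive cells with Il1rl1 and 1.14 in theirs. Tnfsf4 stood at 2.57 without Il1rl1, against 0.322 in Csf2-zero partners, and at 1.18 with Il1rl1, against 0.615 in Csf2-zero partners. Stat5a stood at 2.80 without Il1rl1, against 0.693 in Csf2-zero partners, and at 0.898 with it, against 1.04. The costimulatory ligands and Stat5a thus ran opposite to Il5 across the Csf2-positive cells. Nfkbia did not divide them, at 39.0 with Il1rl1 and 42.0 without, against 21.5 and 17.8 in the partners with 0 Csf2 counts. Csf2 itself stood at 19.1 per 10000 with Il1rl1 and 15.9 without. The median depth was 3089.5 counts with Il1rl1 and 2508 without, and its part in the split was not tested.

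**Figure D3:**
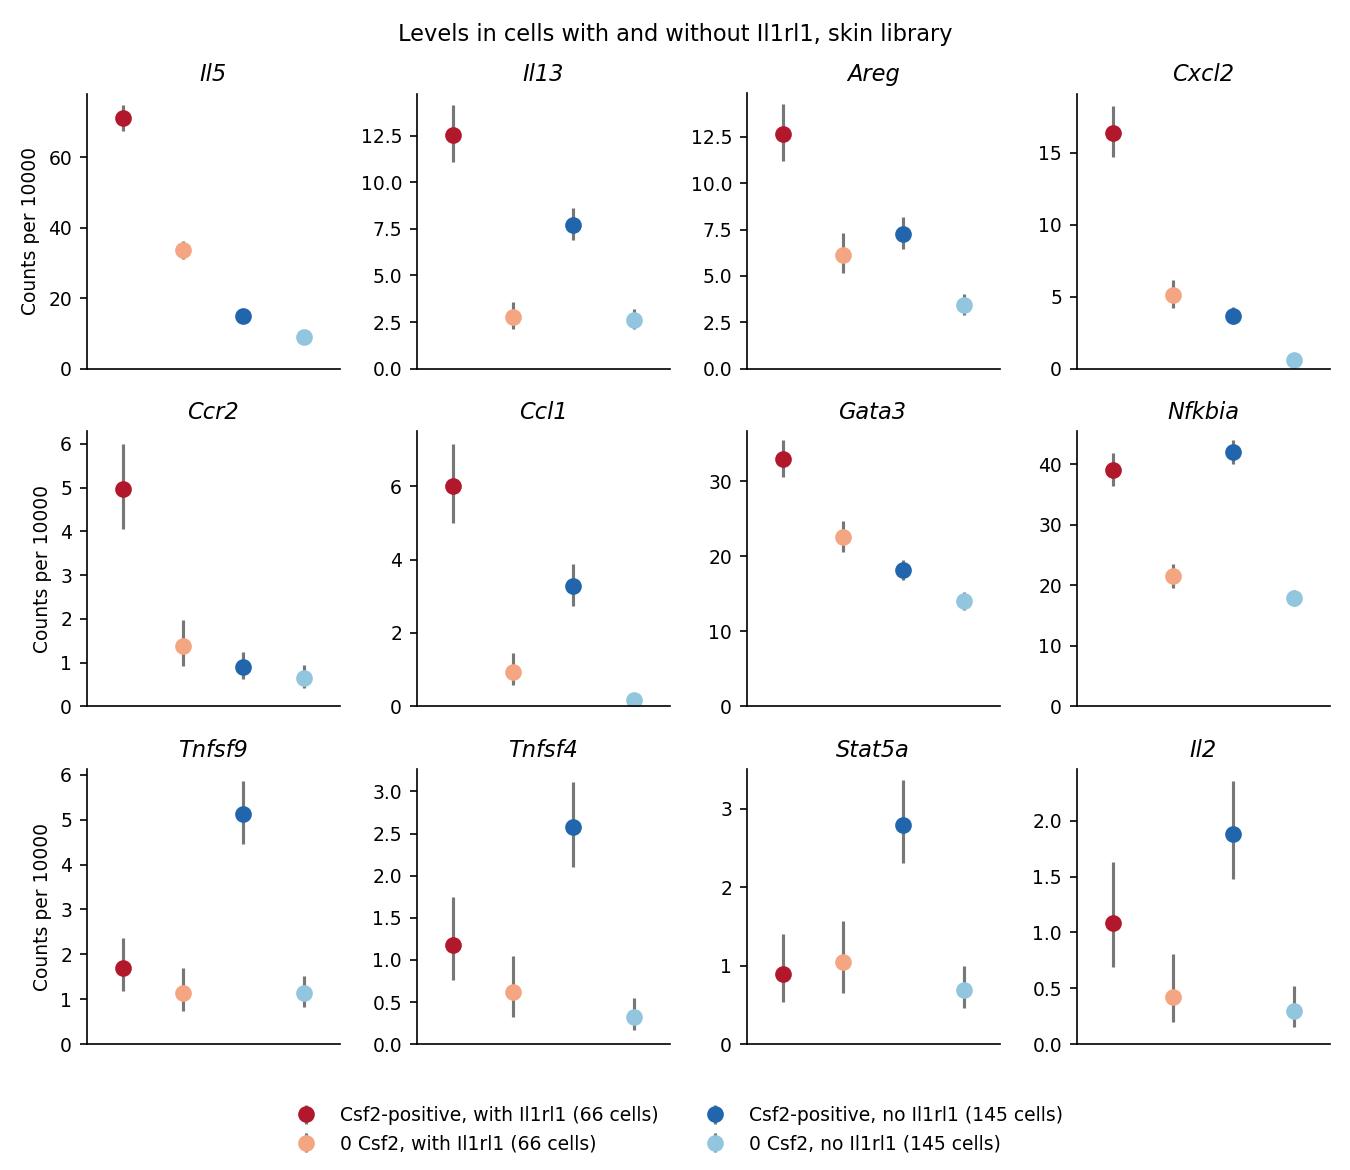
Level of 12 genes (counts per 10000) in skin cells split by Csf2 (at least 2 counts, or 0) and by detection of Il1rl1, with 66 or 145 cells a set and 95% Poisson intervals for counting error. Il5 and Cxcl2 were highest with both transcripts, whereas Tnfsf9, Tnfsf4, Stat5a and Il2 were highest in Csf2-positive cells without Il1rl1.

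Csf2-positive cells lay in several clusters of the skin library. Csf2 and the readout genes, Il5, Il13 and Il1rl1 among them, were left out of the clustering. Whether Csf2-positive cells form a cluster of their own was thus not tested. Cluster 2 held 81 of them among 1645 cells (4.92%), cluster 6 held 79 among 1302 (6.07%) and cluster 4 held 30 among 756 (3.97%). The share was highest in cluster 5, with 14 of 55 cells (25.5%, 14.7 to 39.0), and remained highest, at 17.3%, after each cell was thinned to 1500 counts. Cluster 5 was led by Klrg1, Il1rl1, Arg1, Il5 and Il13, and cluster 6 by Ifi202b, heat-shock genes, Tnfsf9, Il2 and Nfkbid. Cluster 8, which carried Cd3e and Il17a, held 3 of 186 (1.61%). The 14 Csf2-positive cells of cluster 5 had 36.5 Il13 counts per 10000, against 7.15 in the other 197 Csf2-positive cells. Set against the 31 cells of cluster 5 with 0 Csf2 counts, the same 14 cells had 36.5 against 6.68 for Il13, but 79.9 against 104 for Il5. Within that cluster Il5 was thus not higher in the Csf2-positive cells. Without cluster 5, 28 genes were at least 2-fold higher, of which 22 were among the 26, and with matching inside each cluster 15 were, of which 10 were among the 26.

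In dorsal skin, 15 of 564 cells held at least 2 Csf2 counts at day 0 (2.66%, 1.5 to 4.35) and 10 of 454 at day 10 (2.20%, 1.06 to 4.01). No background share was measured in these libraries, and the 1.47% background of the skin library lies within the day 10 interval and just under that of day 0. At 1500 counts per cell the shares were 3.92% in skin, 2.38% at day 0 and 1.28% at day 10. Each is 1 library, so these shares have no replicate check, and mitochondrial genes are not listed in the dorsal files, so that limit could not be applied there. With so few dorsal cells, the test across libraries used cells with at least 1 Csf2 count, a share that in the skin library was close to the background given above. It matched 519 cells in skin, 34 at day 0 and 25 at day 10 to cells with 0 counts, and fitted the sums with the library as a block.

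By the edgeR quasi-likelihood test, with p-values adjusted by the Benjamini-Hochberg method, 8 of 2011 genes were higher in Csf2-detected cells (0.398%) and 1 was lower (0.0497%). The higher genes were Il5 (log2 fold change 1.25, adjusted p 6.88e-05), Il13 (1.24, 0.00126), Areg (1.2, 0.00126), Nfkbia (0.93, 0.00126), Cxcl2 (1.83, 0.00453), Tnfsf9 (1.45, 0.0266), Il1rl1 (1.43, 0.0323) and Pim1 (0.55, 0.0266), by the same edgeR test. Of these 8, 7 genes, all but Pim1, a kinase gene induced by cytokine signals, were among the 26 genes of the skin library, which supplied 1 of the 3 pairs of sums. Of the 26 genes, 16 were tested, and since the skin library chose them their direction in this fit is partly fixed. Without the skin library 11 were tested, of which 10 had a fold change above 0 and Bhlhe40 had one of -0.45 on the log2 scale. Fth1, the heavy chain of the iron store ferritin, fell by 0.53 on the log2 scale (edgeR, adjusted p 0.00156).

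The levels per library show which sums carry this. Il5 stood at 25.3, 49.3 and 32.5 per 10000 in Csf2-detected cells of skin, day 0 and day 10, against 12.0, 15.1 and 16.8 in matched cells. Areg stood at 7.48, 10.9 and 18.6 in Csf2-detected cells of skin, day 0 and day 10, against 3.83, 4.84 and 5.85 in matched cells. The direction was thus the same in each library. Il1rl1 stood at 5.21, 4.72 and 11.8 in Csf2-detected cells, against 1.79, 0.346 and 8.51 in matched cells, so matched cells at day 10 already carried it. Without the skin library, all 9 genes still passed the edgeR test with the same sign, among 26 called of 1510 tested. That fit rests on the day 0 and day 10 libraries alone, with 34 and 25 Csf2-detected cells. It can estimate little of the spread between libraries. For Il5 its unadjusted edgeR p was 3.05e-19, against 3.42e-08 with all libraries, so the smaller p-values are not stronger evidence. With at least 2 Csf2 counts, a setting added after the data were seen, edgeR called 10 of 960 genes higher (1.04%), among them Il5, Il13, Il1rl1, Nfkbia, Cxcl2, Areg, Tnfsf9 and Gadd45b of the 26 genes. Without day 0 the edgeR test called 0 of 7357 genes at an adjusted p of 0.05, with 116 at an unadjusted p of 0.05. Without day 10 it called 10 of 7115.

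**Figure D4:**
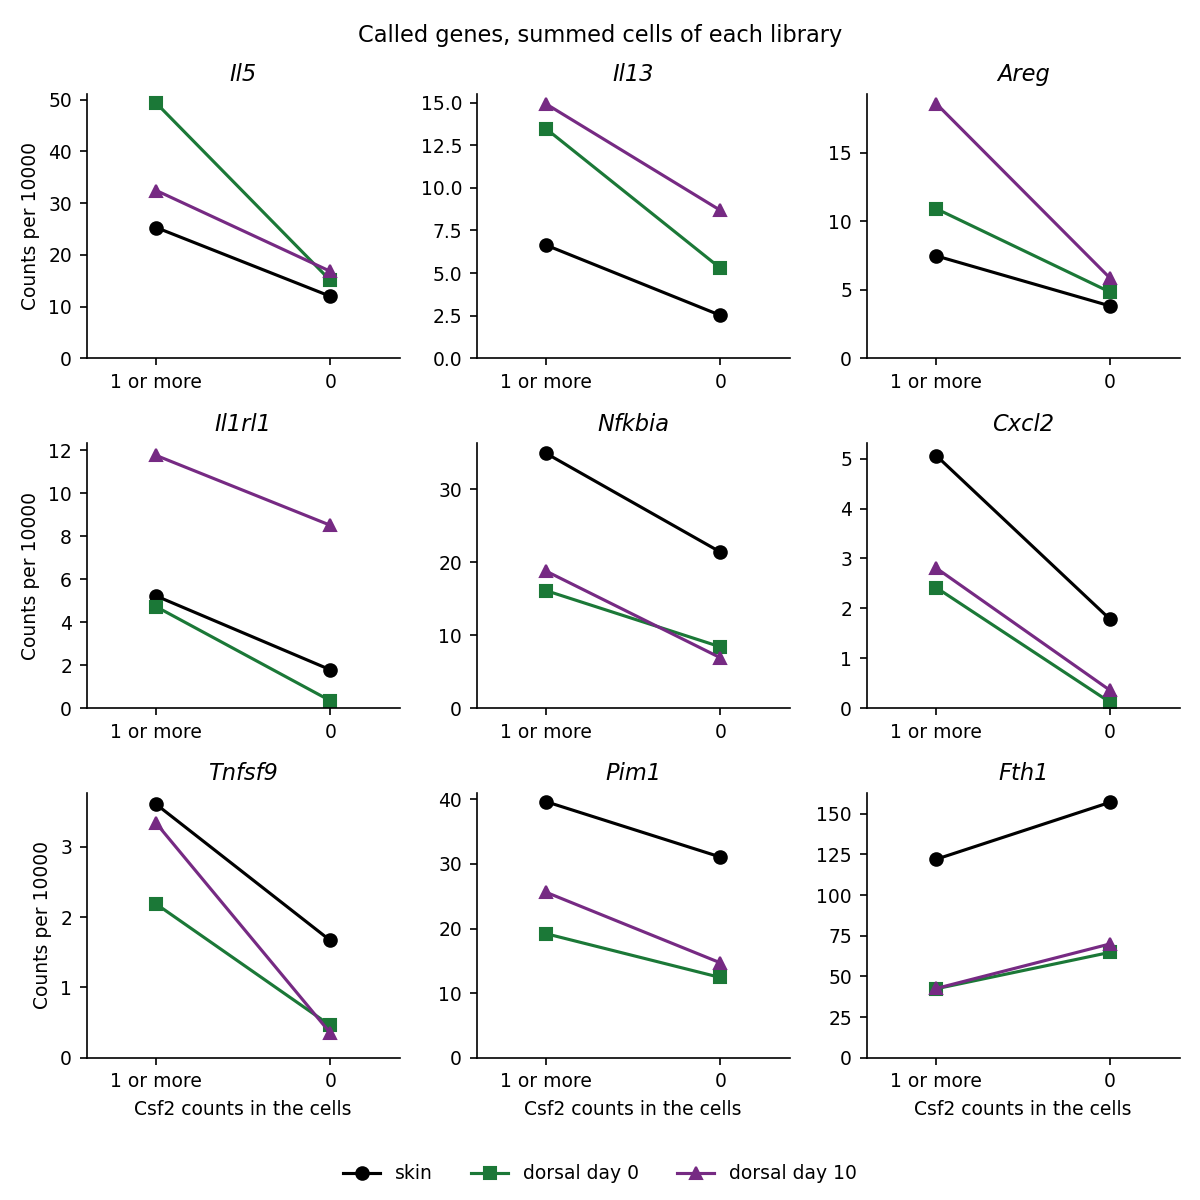
Level of the 9 called genes (counts per 10000, over genes listed in every library) in cells with at least 1 Csf2 count and in matched cells with 0, joined by a line for each of the 3 single-cell libraries. Each gene except Fth1 was higher in the Csf2-detected cells of each library, and Fth1 was lower.

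Bulk libraries showed in which sorted ILCs Csf2 and the 26 genes were expressed. The 14 libraries held 14450612 to 44098274 counts in genes, and levels are CPM, counts scaled to the library size. In a bulk library fewer cells of a type and less RNA per cell cannot be told apart. Gata3, the targeted gene, stood at 154, 235 and 307 CPM in fm_pos_Gata3flox, against 164 and 303 in fm_pos, and at 299 and 314 in Gata3KO, against 381 and 581 in WT. It passed the edgeR test in no comparison, and gene-wide counts do not show which part of a transcript remains.

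Csf2 was low in reporter-positive ILCs of both genotypes. It stood at 23.4, 31.6 and 19.8 CPM in fm_pos_Gata3flox, against 383, 461 and 491 in fm_neg_Gata3flox. In intact mice it stood at 18.2 and 41.9 CPM in fm_pos, against 407 and 150 in fm_neg. The groups did not overlap in either genotype, although the fm_neg libraries differed by more than 2-fold. Csf2 passed edgeR's test in Gata3flox mice with a log2 fold change of -4.16 ± 0.44 (SE, adjusted p 0.00679). It lost that call without fm_pos_Gata3flox replicate 2 (-4.37, edgeR adjusted p 0.0549) or replicate 3 (-4.02, adjusted p 0.0513). In intact mice the call, with an adjusted p of 0.0142 by edgeR, used the spread of all 10 reporter libraries, and with the 4 libraries alone the adjusted p was 0.246. The difference between the genotypes' reporter comparisons was -0.95 ± 0.61 (edgeR, adjusted p 0.531). Within reporter-positive cells, fm_pos_Gata3flox over fm_pos gave -0.27 ± 0.43 (edgeR, adjusted p 0.794), and within reporter-negative cells fm_neg_Gata3flox over fm_neg gave 0.68 ± 0.44 (adjusted p 0.431). After tamoxifen, Csf2 stood at 187 and 275 CPM in Gata3KO, against 245 and 293 in WT, and the groups overlapped.

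The 26 genes leaned the same way as Csf2. In Gata3flox mice, 10 of 26 passed the edgeR test lower in fm_pos_Gata3flox and 0 higher, where 0.235% of 17456 genes were called lower and 0.126% higher, and their median log2 fold change was -1.0. In intact mice, 5 of 26 were called lower in fm_pos and 0 higher, where 2.11% of all genes were called lower and 0.624% higher, and 22 of 26 had a fold change below 0, against 48.7% of all genes. Their median there was -0.86, against 0.00 for all genes. These comparisons use separate libraries. With the 4 intact libraries alone, 0 of 26 passed, and 29 of all 13638 genes tested were called lower. The Gata3flox count varied with each library left out, and was 0 without fm_pos_Gata3flox replicate 2, 1 without replicate 3 and 5 without replicate 1. Over all genes those fits called 0 of 17087, 11 of 17109 and 19 of 17027 lower, in the same order. The count among the 26 was 4, 2 and 2 without fm_neg_Gata3flox replicates 1, 2 and 3, where 19, 8 and 7 of all genes were called lower. Calls thus fell over all genes as well, and the list's median stayed between -1.10 and -0.96. The names of the 3 fm_pos_Gata3flox libraries share 1 tag with the letter L, here called the L tag. In 2 of the 3 fm_neg_Gata3flox libraries the L tag differs, and its meaning is not given. The L tag was also fitted as a term, added after the data were seen. With that term edgeR called 2 of the 26 lower and 10 genes in all, against 63 in all without it. Csf2 was among them at -4.64 (edgeR adjusted p 0.0325). Summed keratinocyte genes reached 418 and 495 CPM in fm_pos, against 2623 and 4801 in fm_neg, and summed fibroblast genes 71.6 and 187 CPM in fm_pos, against 6137 and 8610 in fm_neg. In those lists 6 of 12 and 4 of 10 genes were called lower in fm_pos, where Dpt, Fbn1, Mfap5 and Pdgfra were at 0, and their part in the intact result was not tested. In Gata3flox mice the keratinocyte sums were 666 to 779 CPM in fm_pos_Gata3flox and 552 to 732 in fm_neg_Gata3flox, and the fibroblast sums 144 to 347 and 419 to 1091, with 0 genes of either list called and none at 0.

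Secreted factors and the alarmin receptor gave the largest of these differences. Ccl1 stood at 14.8, 7.16 and 7.27 CPM in fm_pos_Gata3flox, against 96.7, 142 and 158 in fm_neg_Gata3flox, a log2 fold change of -3.77 ± 0.43 (edgeR, adjusted p 0.00914). In intact mice Ccl1 stood at 7.92 and 17.8 in fm_pos, against 169 and 115 in fm_neg (-3.46 ± 0.51, edgeR, adjusted p 0.0101). Ccl1 thus fell in both genotypes, as did Il1rl1, Myc and Plscr1. Il1rl1 stood at 3.61, 4.89 and 3.71 CPM in fm_pos_Gata3flox, against 45.3, 102 and 81.6 in fm_neg_Gata3flox (-4.23 ± 0.57, edgeR, adjusted p 0.0179). Il5 stood at 6.79, 44.6 and 30.03 CPM in fm_pos_Gata3flox, against 499, 839 and 1360 in fm_neg_Gata3flox (-5.05 ± 0.79, edgeR, adjusted p 0.0346). The Il5 groups did not overlap in intact mice, at 58.9 and 271 in fm_pos against 698 and 728 in fm_neg, but the gene did not pass the edgeR test there (adjusted p 0.215).

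**Figure D5:**
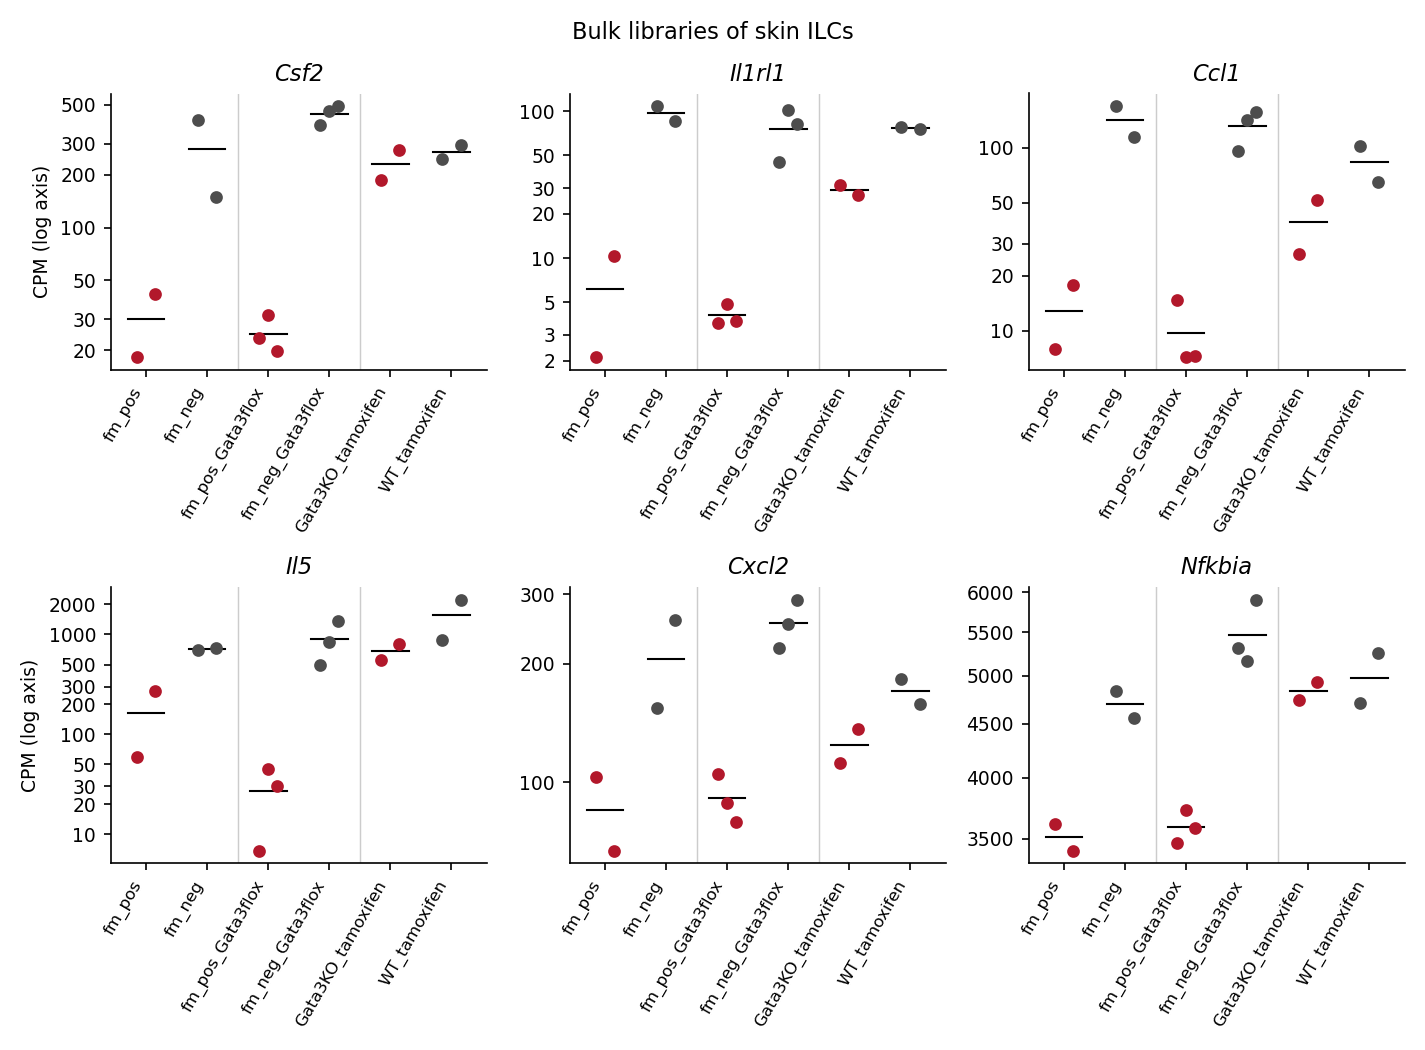
CPM (log axis) of Csf2 and 5 of the genes higher in Csf2-positive cells in each bulk library, with points for libraries and lines for group means. Reporter-positive or Gata3KO groups are in red and their comparison groups in dark grey. For Csf2, Il1rl1, Ccl1, Il5, Cxcl2 and Nfkbia the reporter-positive libraries lay below the reporter-negative ones in both genotypes. The share of all genes that do so was not counted, and it can be large with so few libraries. Il5, Cxcl2 and Nfkbia did not pass the edgeR test in intact mice. Csf2 and Nfkbia overlapped between Gata3KO and WT.

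The other genes called lower in fm_pos_Gata3flox by edgeR were Tnfsf9 (-1.87, adjusted p 0.00914), Cxcl2 (-1.48, 0.0431), Slfn2 (-1.55, 0.025), Ccdc184 (-2.60, 0.00337), Nfkbia (-0.60, 0.0346), Myc (-1.53, 0.0169) and Plscr1 (-1.13, 0.0106). In fm_pos the others called lower by edgeR were Myc (-2.57, adjusted p 0.00175), Plscr1 (-1.94, 0.00106), Spry1 (-1.95, 0.0232) and Il1rl1. The other 15 of the 26 passed in neither reporter comparison. Among them was Il13, at -2.65 in Gata3flox mice (edgeR adjusted p 0.0848) and -1.29 in intact mice (0.271), and Areg, at -0.53 (0.655) and -1.02 (0.112). They also included Il2, Tnfsf4, Ccr2, Lif, Egr2, Gch1, Stat5a, Gadd45b, Bhlhe40, Npnt, Tesk1 and Trib1.

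Between genotypes within a reporter class, fewer of the 26 genes passed. All intact reporter libraries carry 1 name tag and all Gata3flox libraries another, whose meaning is not given. In these comparisons, that of Csf2 included, genotype and tag cannot be told apart. In fm_pos_Gata3flox against fm_pos, 3 were called lower by edgeR and 0 higher (0.418% of all genes lower and 1.11% higher): Ccdc184 (-1.68, adjusted p 0.0124), Il2 (-1.19, 0.035) and Slfn2 (-1.28, 0.0368). The 3 calls became 5 without fm_pos replicate 1, 1 without fm_pos replicate 2, 1 without fm_pos_Gata3flox replicate 1 or 3 and 0 without its replicate 2. The median of the 26 was -0.29, where the median of all genes was 0.18. In fm_neg_Gata3flox against fm_neg, 1 gene was called higher (0.596% of all genes), Tnfsf4 (2.33, edgeR adjusted p 0.0492), and 2 lower (0.739%), Myc (-1.16, 0.0421) and Trib1 (-1.34, 0.0431). These lower calls were lost without any 1 of the 5 libraries. Without fm_neg_Gata3flox replicates 1, 2 and 3, edgeR called 14, 3 and 14 of all genes lower. There was 1 higher call without fm_neg replicate 1, and 0 without fm_neg replicate 2, without any 1 of the fm_neg_Gata3flox libraries or with the replicate number as a block. In Gata3KO against WT, edgeR called 0 of the 26 and 0 of 13272 genes (0%), with 2 of the 26 and 915 of all genes at an unadjusted p of 0.05, where DESeq2 called 1 of the 26 and 230 in all. Of the 26 genes, 13 had a fold change below 0 in Gata3KO against WT, where 51.5% of all genes did. Their median log2 fold change was -0.008, against -0.025 for all genes. Among those below 0, Il1rl1 stood at 31.7 and 26.7 CPM in Gata3KO, against 78.2 and 76.2 in WT. Ccl1 stood at 26.3 and 52.0 in Gata3KO, against 102 and 65.4 in WT.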

How the data were processed

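The deposited tables of single-cell and bulk counts hold whole-number counts per gene, made by the authors. Per the submitters' processing notes, HISAT2 2.1.0, featureCounts and Subread were used with mm10; how these apply to the single cells is not given in the sources used here, nor is strand. The members and gene lists were chosen with earlier results of these data known. Genes were named by rule: Csf2 and a set of cytokine and receptor readouts, the 14 highest and 10 lowest ratios past 2-fold where the summed count reached 100, and up to 3 of each list. The others of the 26 and 9 genes, and Pim1 and Fth1, were named after their values were seen, to describe the sets more fully; 1 of the 26 genes is counted but not reported here.

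Each Csf2-positive cell was matched to a cell with 0 Csf2 counts within 10% of its total without Csf2. Levels are summed counts per 10000; ratios have exact Poisson 95% intervals and shares Clopper-Pearson intervals, both for counting error only. Cells were clustered with scanpy 1.11.5 and leidenalg 0.10.2, with Csf2 and the readout genes left out. Bulk counts were tested with edgeR 4.0.16 (R 4.3.3), filterByExpr, TMM, the quasi-likelihood test and Benjamini-Hochberg adjustment at 0.05: 4 reporter groups in 1 fit, Gata3KO and WT in another. Alternatives used DESeq2 1.42.0, other filters, scaling, thresholds and libraries left out. The design asked for 20 Csf2-positive cells in each single-cell library. The dorsal libraries held 15 and 10, so cells with at least 1 Csf2 count, listed in the design as another setting, give the reported sums. Scripts were tested on simulated counts. Sequences come from RefSeq (GRCm38.p6); 20 of 26 genes matched. Csf2 has no printed window, because its RefSeq start lies 232 bases from the gene start in the files.

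Replicate numbers were not taken to pair libraries: same-numbered deviations correlated at 0.03 in intact mice, at 0.24, 0.02 and 0.09 in Gata3flox mice and at 0.04 after tamoxifen.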

Additional observations from a re-analysis of the deposited data

Results flagged for a closer look

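For 3 of the genes that separated the skin cells, the reporter comparison differed between genotypes in edgeR's interaction term (Gata3flox minus intact, Benjamini-Hochberg adjustment). Ccdc184 gave a difference of -1.92 on the log2 scale (edgeR adjusted p 0.037), with 153, 165 and 172 CPM in fm_pos_Gata3flox, against 857, 998 and 1109 in fm_neg_Gata3flox, and 358 and 693 in fm_pos, against 871 and 810 in fm_neg. Slfn2, a regulator of lymphocyte quiescence in mouse, gave -2.09 (edgeR adjusted p 0.0308), with 94.2, 60.8 and 55.3 CPM in fm_pos_Gata3flox, against 195, 215 and 206 in fm_neg_Gata3flox, and 143 and 198 in fm_pos, against 113 and 122 in fm_neg, so its direction differed. The chemokine Ccl5 gave 10.09 (edgeR adjusted p 0.00361), with 332, 257 and 69.8 CPM in fm_pos_Gata3flox, against 123, 122 and 144 in fm_neg_Gata3flox, and 0.0974 and 0.0753 in fm_pos, against 38.0 and 77.7 in fm_neg. The Ccl5 values in fm_pos lie near the floor, so the size of this difference is not well determined.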

How the results depend on the processing

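The share of Csf2-positive skin cells was 12.7% at 1 or more Csf2 counts and 3.00% at 3 or more. The 26 higher and 9 lower genes became 108 and 308 against all cells with 0 Csf2 counts, unmatched, and 116 and 133 at a minimum of 30 summed counts. Matching within clusters, added after seeing the data, gave 15 higher and 2 lower, of which 10 and 0 were among the 26 and 9. The lower genes numbered 2 with 10 strata of depth (1 of the 9), 0 after thinning and 5 without CD3-positive cells (2 of the 9), and 0 of the 9 stayed past 2-fold in all settings. Of the higher genes, 12 of 21 after thinning, 12 of 18 at 1 or more Csf2 counts and 14 of 24 at 3 or more were among the 26. All 26 higher genes kept a ratio above 1 in the 10 settings run, and 8 stayed past 2-fold in all, among them Ccl1, Ccr2, Cxcl2, Il13, Il2, Tnfsf4 and Tnfsf9. The sign turned for Ccl5 (log2 ratio 0.56 unmatched, 0.19 in strata, 1.24 within clusters), Fcer1g (0.38 within clusters) and Scart2 (0.23 without CD3-positive cells); the cause was not tested. The 9 genes of the 3-library test became 4 with DESeq2, 26 without a filter, 37 unmatched and 0 to 26 with a library left out. Without the library block they became 0, with 32 of 1689 genes at an unadjusted p of 0.05 by edgeR. Csf2 in intact reporter mice gave -3.25 with both groups alone (edgeR adjusted p 0.246) and -3.92 to -2.32 with a library left out. The range was -4.37 to -4.02 in Gata3flox mice, -0.75 to 0.44 for fm_pos_Gata3flox against fm_pos, 0.13 to 1.57 for fm_neg_Gata3flox against fm_neg and -0.52 to 0.0367 after tamoxifen. Of the 26 genes, those called lower in intact mice were 13 with DESeq2, 9 without a filter, 0 with both groups alone and 5 to 8 with a library left out. In Gata3flox mice they were 14 with DESeq2, 13 without a filter and 12 at a mean of 5 CPM. They were 2 with the L tag as a term and 0 to 5 with a library left out. Against fm_pos they were 6, 7 and 0 with DESeq2, no filter and both groups alone, and 0 to 5 with a library left out. Against fm_neg they were 4 and 3 with DESeq2 and no filter, and 0 to 0 with a library left out. After tamoxifen DESeq2 called 1. Calls over all genes changed too. DESeq2 called 1830 of 27320 genes lower in intact mice, 301 in Gata3flox mice, 694 against fm_pos and 996 against fm_neg. Without a filter edgeR called 988, 182, 296 and 504 of 27320 lower, in the same order. At a mean of 5 CPM it called 69 of 9955 lower in Gata3flox mice. The main fit called 369 of 17456 lower in intact mice and 41 in Gata3flox mice. With the replicate number as a block, Csf2 gave -3.27 in intact mice, -4.17 in Gata3flox mice, -0.22 and 0.68 between genotypes and -0.24 after tamoxifen, and the lower calls among the 26 were 4, 7, 2 and 0. Depth limits these data to abundant transcripts in single cells, at a median of 2666 counts, and 1 library a condition allows no test of shares.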
